A study of Schmidtea mediterranea with 48 samples.

Results

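The planarian *Schmidtea mediterranea* (asexual strain CIW4) is a flatworm that keeps replacing its tissues as an adult, and *nr4A* encodes a nuclear receptor transcription factor expressed in its muscle. The 6 contigs described here are dd_Smed_v4_1432 and dd_Smed_v4_29517, whose best human BLAST match is *ANK3*, dd_Smed_v4_2072 and dd_Smed_v4_7016, matched to *ANK2*, and dd_Smed_v4_11394 and dd_Smed_v4_11981, matched to *UNC13B*. They were chosen by these names, from 26401 transcriptome contigs counted in both tissues, with earlier results of these data known. They are not all contigs so named, since dd_8391 (*ANK2*) was left out. The 6 are written below with their short numbers, as in dd_1432 (*ANK3*). The names rest on sequence likeness and not on phylogeny, and the contigs of a pair may be separate genes or pieces of 1 gene.

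Ankyrins are adaptor proteins that hold channels, pumps and adhesion proteins of the cell membrane on the spectrin skeleton beneath it. In mammals, ANK3 gathers voltage-gated channels where an axon begins, and ANK2 places ion transporters and calcium handling proteins in heart muscle and along axons. UNC13 proteins, named after a paralysed *C. elegans* mutant, prepare synaptic vesicles for release of their transmitter, and UNC13B is 1 of the mammalian forms.

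Heads cut behind the eyes and the hind ends of tails were taken from animals given double-stranded RNA against *nr4A*, called *nr4A(RNAi)*, or against *unc-22* of *C. elegans*, a gene used as the control and called control(RNAi). The pieces were collected after 2, 3, 4 and 5 weeks of RNAi. There were 3 libraries for each tissue, week and RNAi group, 48 in all in 16 groups, and each library pooled 6 animals that had been starved before the cut. RNA interference lowers a transcript in the whole animal, so the groups do not tell in which cells the loss acted. In pooled pieces of tissue, fewer cells of a type and less RNA per cell cannot be told apart.

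The depth was 13800550 to 27491137 counts on contigs in heads and 13395084 to 42917781 in tails. The *nr4A* contig dd_12229 measured 12.2, 17.8 and 19.5 CPM (read counts scaled to library size, given as lowest, median and highest of 12 libraries) in *nr4A(RNAi)* heads, against 23.9, 26 and 28.3 CPM in control heads, and 12.8, 14.2 and 18.3 CPM in *nr4A(RNAi)* tails, against 18.5, 21.8 and 25.6 CPM in control tails. The ranges did not overlap in either tissue. The head tip markers *notum*, *foxD*, *sFRP-1* and *ndl-5* summed to 341 to 395 CPM in control heads, against 13 to 17.1 CPM in control tails, and the tail tip markers *wntP-1* and *wnt11-2* summed to 1.38 to 2.33 CPM in control heads, against 38.5 to 56.2 CPM in control tails, so the tissue labels match these markers.

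Of the 48 libraries, 5 stood apart from the rest, and all 5 were *nr4A(RNAi)* libraries: heads at week 2 replicate 2, at week 4 replicate 2 and at week 5 replicates 1 and 2, and tails at week 2 replicate 1. In each of them 2.39 to 6.89% of 11205 well-expressed contigs, the 6 homologs left out, lay more than 1 (log2) below the median control library of the tissue. The control tail library of week 3 replicate 1 came next, at 1.41%, and the other libraries reached at most 0.357%. Results for the homologs are therefore given with and without the 5 libraries. This rule was set after the data had been seen, and it takes libraries out of the *nr4A(RNAi)* groups only, so values without them are not a replacement for the values with them.

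All 6 contigs were well covered. The fewest reads in a library were 35, for dd_29517 (*ANK3*) in the *nr4A(RNAi)* tail library that stood apart, and all 6 passed the filter on low counts in every comparison. Contig lengths were not used, so a contig is compared with itself across libraries and never in level with another contig.

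**Figure D1:**
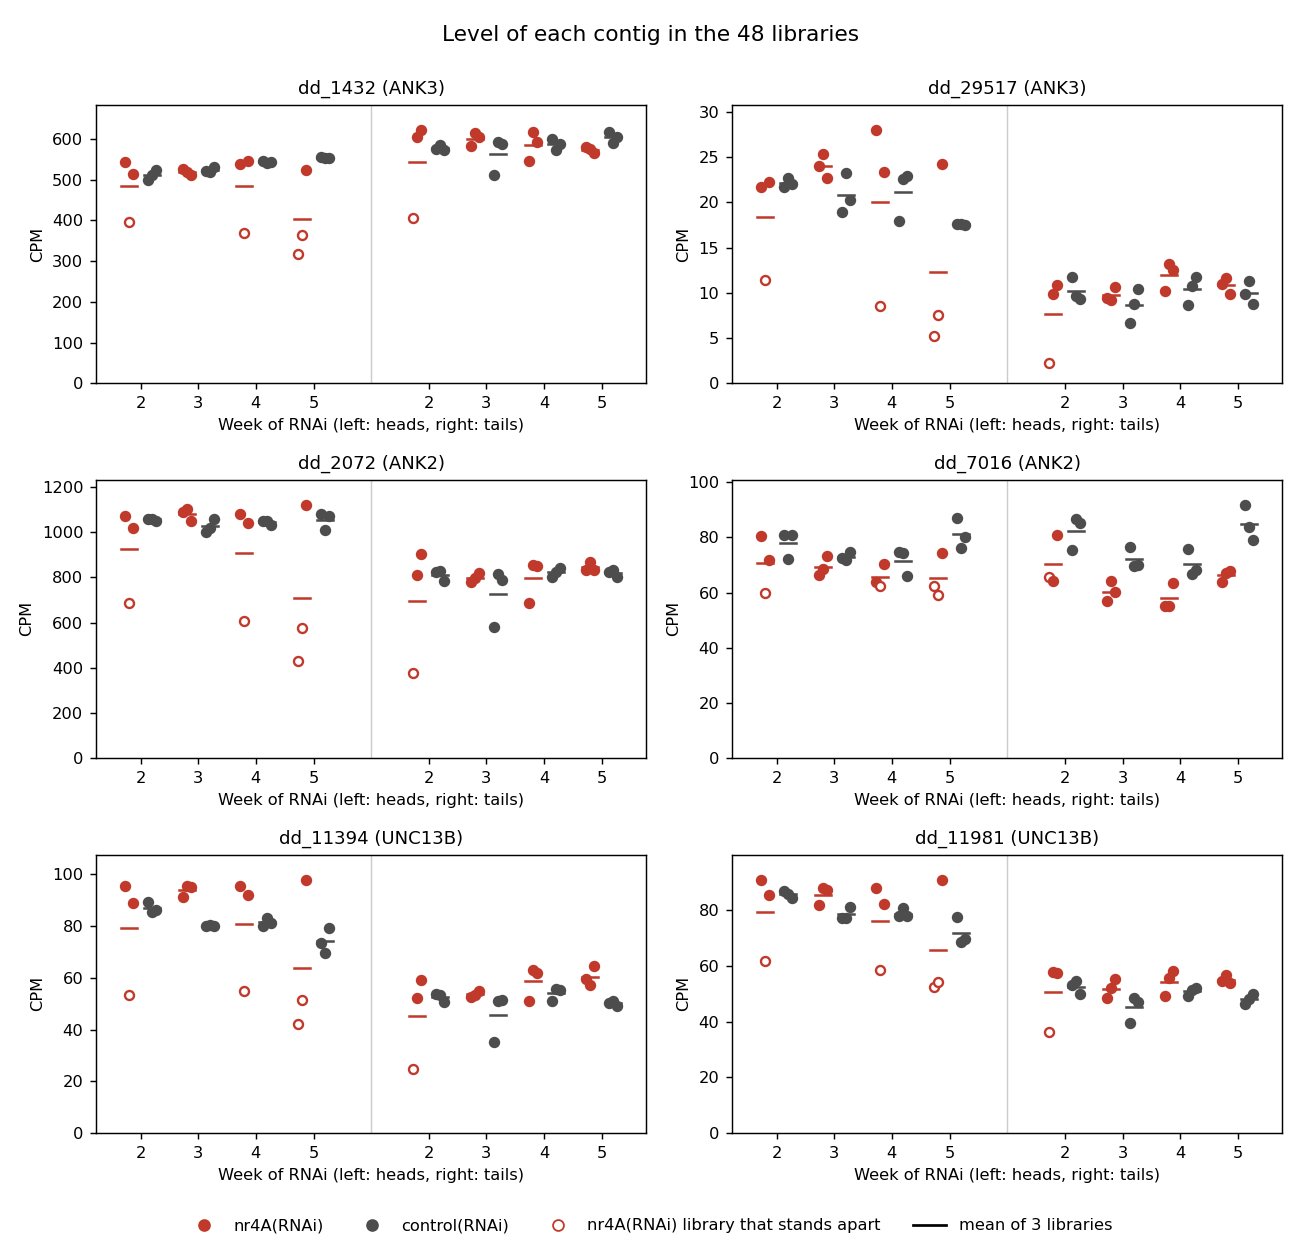
Level of each of the 6 contigs in CPM (vertical axes, starting at 0) in the 48 libraries, by week of RNAi, with heads in the left and tails in the right part of each panel. Points are libraries, open points the 5 *nr4A(RNAi)* libraries that stand apart, and short lines the mean of 3 libraries. In dd_2072 (*ANK2*) the open points lie between 376 and 687 CPM, and in dd_7016 (*ANK2*) they lie among or next to the other *nr4A(RNAi)* libraries.

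The first comparison asked how the homologs are distributed between the ends of the body, in control animals. Both *UNC13B* contigs, dd_29517 (*ANK3*) and dd_2072 (*ANK2*) were higher in control heads than in control tails, dd_1432 (*ANK3*) was slightly lower in heads, and dd_7016 (*ANK2*) did not pass the test. In the pairs named after the same ankyrin, dd_29517 and dd_2072 were thus higher in heads and their partners were not. The *UNC13B* pair differed between the tissues by nearly the same amount.

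For dd_29517 (*ANK3*) the 12 control heads measured 17.5, 21 and 23.2 CPM (lowest, median and highest), against 6.69, 9.77 and 11.8 CPM in the 12 control tails. The groups did not overlap, and the log2 fold change was 1.06 (SE 0.067, edgeR quasi-likelihood test, adjusted p = 1.59e-13). The other *ANK3* contig, dd_1432, measured 500, 535 and 556 CPM in control heads, against 511, 587 and 616 CPM in control tails. Here the groups overlapped and the difference was small, at -0.13 (SE 0.026, edgeR adjusted p = 0.000107). It did not pass in a fit of all 48 libraries, where edgeR gave an adjusted p of 0.0874.

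The *ANK2* contig dd_2072 measured 999, 1050 and 1080 CPM in control heads, against 579, 818 and 839 CPM in control tails, with no overlap and a log2 fold change of 0.40 (SE 0.040, edgeR adjusted p = 1.55e-09). The lowest tail value, 579 CPM, was that of week 3 replicate 1, and without this library the log2 fold change was 0.38. The other *ANK2* contig, dd_7016, measured 65.9, 74.6 and 87.2 CPM in control heads, against 66.7, 76.3 and 91.8 CPM in control tails. Its log2 fold change was -0.02 (SE 0.036, edgeR adjusted p = 0.573).

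Of the *UNC13B* contigs, dd_11394 measured 69.5, 80.3 and 89.2 CPM in control heads, against 35, 51 and 55.7 CPM in control tails, and dd_11981 measured 68.7, 77.8 and 87 CPM in control heads, against 39.6, 49.5 and 54.5 CPM in control tails. Neither contig overlapped between the tissues. The log2 fold changes were 0.67 (SE 0.043, edgeR adjusted p = 2.18e-13) for dd_11394 and 0.68 (SE 0.032, edgeR adjusted p = 3.43e-16) for dd_11981.

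In this comparison 5 of the 6 homologs passed the threshold, 4 higher and 1 lower in heads. Of all 19962 contigs tested, 72.4% passed, 7061 higher and 7400 lower in heads, so passing does not set the homologs apart. The share of all contigs whose groups did not overlap was not computed, here or in later comparisons. A lack of overlap thus does not set the homologs apart either. The median log2 fold change over all contigs was -0.01. The labels name head and tail libraries in separate series, and the tissues were counted in separate tables, so tissue and anything else that differed between these sets of libraries cannot be told apart.

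Contigs named after proteins that work beside ankyrins and UNC13 were compared in the same fit. Of 10 synapse contigs, 9 were higher and 1 was lower in control heads, with a median log2 fold change of 0.58. The highest was dd_7243 (*SYT11*), a synaptotagmin homolog, at 2.02, and dd_10734 (*RIMS2*), named after an active zone protein that binds UNC13 in mammals, was at 0.54 (SE 0.033, edgeR adjusted p = 7.23e-14). The lower contig was dd_10613 (*SVOP*), named after a synaptic vesicle protein, at -0.23. Of 10 channel and pump contigs, 5 were higher and 4 lower in control heads. Among them, dd_7917 (*ATP1B1*), a sodium pump subunit homolog, was at 0.81, dd_9434 (*KCNIP1*), a potassium channel partner, at 1.52, and dd_15815 (*CACNA1B*), a presynaptic calcium channel homolog, at -1.94. Of the other contigs with ankyrin names, dd_17293 (*ANK1*) was higher in control heads, at 1.24 (SE 0.057, edgeR adjusted p = 1.82e-16), and dd_8391 (*ANK2*) was at 0.01 (edgeR adjusted p = 0.837).

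Of the 4 neural markers, 3 were higher in control heads, and *GAD1*, an enzyme that makes the transmitter GABA, was lower, at -1.16. Their summed level was 511 to 639 CPM in control heads, against 228 to 285 CPM in control tails. The 10 muscle markers summed to 10200 to 13200 CPM in control heads, against 10400 to 14000 CPM in control tails, and 2 were higher and 4 lower in heads. The part of these cell types in the head and tail levels of the homologs was not tested.

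**Figure D2:**
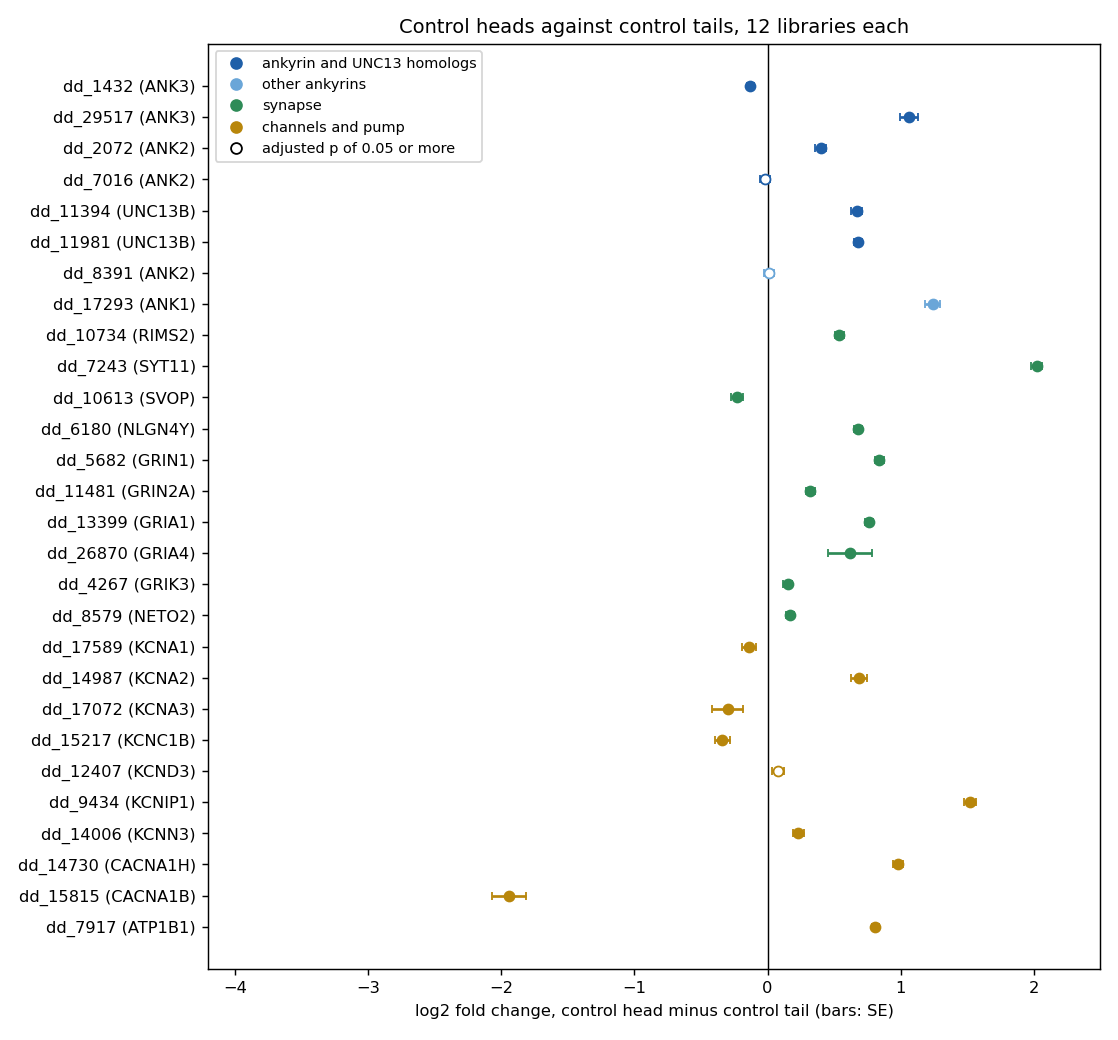
Log2 fold change of control heads over control tails (horizontal axis, bars are SE) for the 6 homologs and for contigs with other ankyrin, synapse, channel and pump names. Filled points pass an adjusted p of 0.05. The *UNC13B* contigs lie at 0.67 and 0.68, and the *ANK3* contigs lie on opposite sides of 0, at -0.13 and 1.06.

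In the controls themselves, none of the 6 contigs passed between week 5 and week 2 by edgeR in heads (1.63% of all contigs passed) or tails (0.582%), no member had an unadjusted p under 0.05, and DESeq2 called 0. This head fit estimates the spread over all 24 head libraries, and without the 4 head libraries that stood apart, 4 of the 6 passed (15.6% of all contigs) though no control library had been removed. These were dd_1432 (*ANK3*) at 0.12 (edgeR adjusted p = 0.0178), dd_29517 (*ANK3*) at -0.33 (edgeR adjusted p = 0.0147), dd_11394 (*UNC13B*) at -0.23 (edgeR adjusted p = 0.001) and dd_11981 (*UNC13B*) at -0.25 (edgeR adjusted p = 0.000958). The control heads of dd_29517 measured 17.6, 17.6 and 17.5 CPM at week 5, against 21.7, 22.7 and 22 CPM at week 2.

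The next comparisons asked how the homologs moved under *nr4A* RNAi. Averaged over the 4 weeks, dd_7016 (*ANK2*) was lower in *nr4A(RNAi)* tails and heads, and no other contig of the 6 passed in either tissue. The fall of dd_7016 in tails held without the libraries that stood apart, and its fall in heads did not. Without those libraries both *UNC13B* contigs and dd_29517 (*ANK3*) were higher in *nr4A(RNAi)* heads.

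In tails, dd_7016 measured 65.8, 64.4 and 80.9 CPM at week 2 of *nr4A* RNAi, against 75.5, 86.6 and 85.3 CPM in control tails. At week 3 it measured 56.8, 64.3 and 60.1 CPM in *nr4A(RNAi)* tails, against 76.6, 69.6 and 70.1 CPM in control tails. At week 4 the values were 55.3, 55.3 and 63.5 CPM in *nr4A(RNAi)* tails, against 76, 66.7 and 68.2 CPM in control tails, and at week 5 they were 64, 67.1 and 67.9 CPM in *nr4A(RNAi)* tails, against 91.8, 83.8 and 79 CPM in control tails. At weeks 3, 4 and 5 the groups did not overlap, and of the 12 *nr4A(RNAi)* tails 11 lay below every control tail of their week. Such an order was not counted over all contigs. Averaged over the 4 weeks, the log2 fold change was -0.29 (SE 0.049, edgeR adjusted p = 0.000943). Among the 6 homologs it was the only call (3.08% of the 19601 contigs tested in tails passed). Without the tail library that stood apart it was -0.27 (SE 0.044, edgeR adjusted p = 0.000381), and the control library of week 3 replicate 1 was not among the low values of this contig, at 76.6 CPM.

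In heads, dd_7016 measured 80.7, 59.8 and 71.7 CPM at week 2 of *nr4A* RNAi, against 80.9, 72.3 and 80.8 CPM in control heads. At week 5 it measured 62.3, 59.2 and 74.2 CPM in *nr4A(RNAi)* heads, against 87.2, 76.2 and 80.1 CPM in control heads. Of the 12 *nr4A(RNAi)* heads 9 lay below every control head of their week, an order that was not counted over all contigs. The mean log2 fold change in heads was -0.17 (SE 0.051, edgeR adjusted p = 0.0319), again the only call of the 6 beside 13% of the 19607 contigs tested. The 4 head libraries that stood apart measured 59.8, 62.5, 62.3 and 59.2 CPM, the lowest values among all heads, and without them the log2 fold change was -0.09 (SE 0.036, edgeR adjusted p = 0.085). This head call was also lost in 5 of 6 fits that left out a replicate number of an RNAi group. Of all contigs, 49.9% passed without *nr4A(RNAi)* replicate 3 and 4.91 to 8.32% in the other settings, against 13% with all libraries.

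The *UNC13B* contigs did not pass over the 4 weeks, at -0.04 (SE 0.122) for dd_11394 and -0.04 (SE 0.088) for dd_11981 in heads and 0.10 for both in tails, where the SE was 0.106 for dd_11394 and 0.071 for dd_11981. Their libraries were split. At week 3, the week without a head library that stood apart, dd_11394 measured 91.2, 95.3 and 94.9 CPM in *nr4A(RNAi)* heads, against 79.9, 80.5 and 79.9 CPM in control heads. The groups did not overlap, and the log2 fold change was 0.24 (SE 0.044, edgeR adjusted p = 0.00246). The call was lost in a fit of all 24 head libraries, at 0.23 (SE 0.244, edgeR adjusted p = 1), where 0.245% of all contigs passed at this week. At week 5 it measured 42.2, 51.3 and 97.8 CPM in *nr4A(RNAi)* heads, against 73.4, 69.5 and 79.1 CPM in control heads. Here the libraries that stood apart were the low values, and the remaining library lay above all controls.

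In tails at week 5, where no library stood apart, dd_11394 measured 59.7, 57.3 and 64.4 CPM under *nr4A* RNAi, against 50.4, 51.1 and 49 CPM in control tails, and passed at 0.26 (SE 0.062, edgeR adjusted p = 0.0176). The other *UNC13B* contig, dd_11981, measured 54.5, 56.6 and 53.9 CPM in *nr4A(RNAi)* tails, against 46.2, 48.2 and 49.8 CPM in control tails, and missed the threshold at 0.19 (SE 0.058, edgeR adjusted p = 0.0581). Neither contig overlapped between the groups at this week. In a fit of all 24 tail libraries the call of dd_11394 was lost, at 0.27 (SE 0.212, edgeR adjusted p = 0.762). Of the 12 *nr4A(RNAi)* libraries of a tissue, 7 heads and 9 tails lay above every control of their week in each *UNC13B* contig. In each contig 4 heads and 1 tail lay below every control, and all of the low ones were libraries that stood apart. Such an order was not counted over all contigs, so these counts do not set the *UNC13B* contigs apart.

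Without the 4 head libraries that stood apart, the mean log2 fold change of the heads was 0.22 (SE 0.025, edgeR adjusted p = 4.92e-07) for dd_11394 and 0.15 (SE 0.027, edgeR adjusted p = 0.000262) for dd_11981. These 2 contigs and dd_29517 (*ANK3*) were then called, beside 21.9% of all contigs. Without the tail library that stood apart, dd_11981 passed in tails at 0.16 (SE 0.044, edgeR adjusted p = 0.0278), beside 7.6% of all contigs, and dd_11394 was at 0.17 (SE 0.059, edgeR adjusted p = 0.0744). Leaving out the low control tail of week 3 replicate 1 as well gave 0.13 for both, with an edgeR adjusted p of 0.0271 for dd_11981 and 0.0504 for dd_11394.

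In the weekly fits with all 6 libraries, the *ANK3* contigs did not pass in any week. In dd_1432 the *nr4A(RNAi)* heads measured 318, 365 and 525 CPM at week 5, against 556, 553 and 554 CPM in control heads, at a log2 fold change of -0.45 (SE 0.205, edgeR adjusted p = 0.343). It passed at this week in the fit of all 24 head libraries, at -0.48 (SE 0.155, edgeR adjusted p = 0.0486), where 13% of all contigs passed. Over the 4 weeks it was at -0.18 (SE 0.077, edgeR adjusted p = 0.121) in heads and -0.03 (SE 0.064) in tails, and without the libraries that stood apart at -0.02 (SE 0.020) in heads and 0.02 (SE 0.037) in tails. In dd_29517 the *nr4A(RNAi)* heads measured 5.19, 7.6 and 24.2 CPM at week 5, against 17.6, 17.6 and 17.5 CPM in control heads. The library that did not stand apart lay above the controls and the others lay below them, and the log2 fold change was -0.48 (SE 0.566, edgeR adjusted p = 0.619). Over the 4 weeks dd_29517 was at -0.16 (SE 0.204) in heads, and without the libraries that stood apart at 0.23 (SE 0.051, edgeR adjusted p = 0.00155).

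The *ANK2* contig dd_2072 followed the same libraries. At week 5 it measured 430, 574 and 1120 CPM in *nr4A(RNAi)* heads, against 1080, 1010 and 1070 CPM in control heads, at a log2 fold change of -0.56 (SE 0.360, edgeR adjusted p = 0.452). Over the 4 weeks it was at -0.23 (SE 0.125, edgeR adjusted p = 0.236) in heads and -0.03 (SE 0.107) in tails, and without the libraries that stood apart at 0.04 (SE 0.022) in heads and 0.05 (SE 0.055) in tails, with no call in either tissue. In this contig the 8 *nr4A(RNAi)* heads that did not stand apart lay between 1020 and 1120 CPM, against 999 to 1080 CPM in control heads.

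By week, with all libraries, edgeR called 0 of the 6 in heads at week 2 (0% of all contigs passed), 1 at week 3 (5.25%), 0 at week 4 (0.049%) and 0 at week 5 (0.0111%). In tails it called 0 at week 2 (0%), 0 at week 3 (0.144%), 0 at week 4 (0.407%) and 2 at week 5 (9.89%), which were dd_7016 (*ANK2*) at -0.36 (SE 0.065, edgeR adjusted p = 0.00388) and dd_11394. In the fit of all 24 tail libraries dd_7016 missed the threshold at this week too, at -0.36 (SE 0.097, edgeR adjusted p = 0.0645), where 1.7% of all contigs passed. DESeq2 called 0 of the 6 wherever edgeR did, and in those weeks an unadjusted p under 0.05 was reached by dd_7016 in tails at week 3 and at week 4 and by no other contig. Without these libraries, 1 of the 6 passed in heads at week 4 (3.24% of all contigs), which was dd_11394 at 0.20 (edgeR adjusted p = 0.0435). At week 5, 3 passed (12.9%), which were dd_29517 at 0.46 (edgeR adjusted p = 0.00902), dd_11394 at 0.41 (edgeR adjusted p = 0.0043) and dd_11981 at 0.34 (edgeR adjusted p = 0.0135). The week 5 values then rest on 1 *nr4A(RNAi)* library against 3 control libraries, and the lone library is assumed to vary as the controls do.

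**Figure D3:**
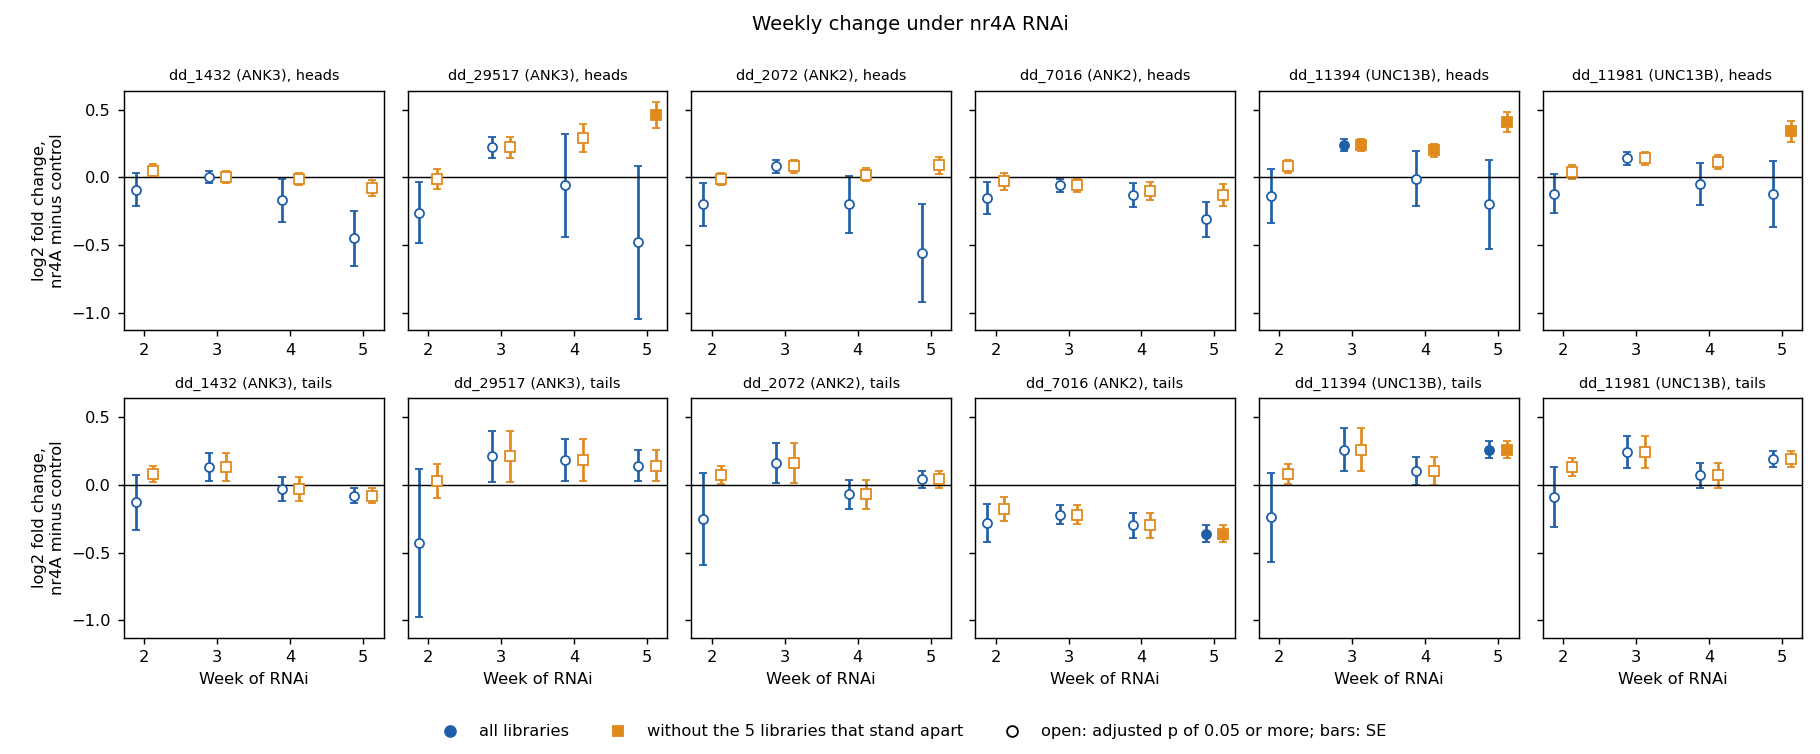
Log2 fold change of *nr4A(RNAi)* over control libraries at each week (vertical axis, bars are SE) for the 6 contigs in heads (upper row) and tails (lower row), with all libraries (circles) and without the 5 that stand apart (squares). Filled symbols pass an adjusted p of 0.05. In heads at week 5 the circles of dd_11394 and dd_11981 (*UNC13B*) lie at -0.20 and -0.12 and the squares at 0.41 and 0.34, while dd_7016 (*ANK2*) lies below 0 in every week in both tissues and with either set of libraries.

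The change at week 5 less that at week 2 called 0 of the 6 by edgeR and by DESeq2 in heads (0.27% of all contigs) and in tails (0.0561%), with no unadjusted p under 0.05. Without the head libraries that stood apart, the *UNC13B* contigs passed in heads, at 0.32 (SE 0.078, edgeR adjusted p = 0.0186) for dd_11394 and 0.29 (SE 0.084, edgeR adjusted p = 0.0431) for dd_11981, beside 5.34% of all contigs. These values rest on replicate 3 alone as the *nr4A(RNAi)* heads of week 5. The difference also includes the lower control values at week 5. In control heads dd_11394 measured 73.4, 69.5 and 79.1 CPM at week 5, against 89.2, 85.5 and 86.2 CPM at week 2. The change in heads less the change in tails, tested in a fit of all 48 libraries, called 0 of the 6 by edgeR and by DESeq2, again with no unadjusted p under 0.05, beside 1.25% of all contigs. For dd_7016 this difference was 0.11 (SE 0.067, edgeR adjusted p = 0.556), so its fall was not shown to be larger in tails. Without the libraries that stood apart the difference was 0.18 and was not called either.

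In the libraries that stood apart, 5 of the 6 contigs lay below the range of the other libraries in both tissues. Against the median control library of the tissue, the 4 head libraries lay at -2 to -0.87 (log2) in dd_29517 (*ANK3*), where the other 20 heads lay at -0.26 to 0.42. They lay at -1.29 to -0.61 in dd_2072 (*ANK2*), where the others lay at -0.07 to 0.09, and at -0.75 to -0.43 in dd_1432 (*ANK3*), where the others lay at -0.10 to 0.06. In the *UNC13B* contigs they lay at -0.93 to -0.55 for dd_11394 and -0.57 to -0.33 for dd_11981, below the lowest of the other heads at -0.21 and -0.18. In dd_7016 (*ANK2*) they lay at -0.33 to -0.26, just below the other heads at -0.22 to 0.22.

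The order of the contigs was similar in the tail library that stood apart, with dd_29517 lowest at -2.13 and dd_7016 least changed at -0.21. The control tail of week 3 replicate 1 lay below the remaining 22 tails in the same 5 contigs, at -0.54 in dd_29517, -0.50 in dd_2072, -0.20 in dd_1432, -0.54 in dd_11394 and -0.32 in dd_11981, and it was at 0.01 in dd_7016. In that library the *nr4A* contig was at -0.01. The *nr4A* contig was at -1.09 to -0.61 in the 4 head libraries and at -0.75 in the tail library. In the *nr4A(RNAi)* libraries that did not stand apart it was at -0.70 to -0.41 in heads and -0.76 to -0.25 in tails. The ranges overlapped, in heads only through week 2 replicate 2. Within a week, the head libraries that stood apart were the lowest. They were at -0.61 against -0.49 and -0.50 at week 2, and at -0.82 against -0.51 and -0.57 at week 4. At week 5 they were at -1.09 and -1.04, against -0.70. In tails at week 2 the values were -0.75 against -0.74 and -0.31. The part of the *nr4A* level in the low values of the homologs was not tested.

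In these 5 libraries the median over the 6 homologs lay between -0.84 and -0.51. The median over the 10 synapse contigs lay between -0.09 and 0.08, and that over the 10 channel and pump contigs between -0.05 and 0.07. Single contigs were lower, down to -0.74 among the synapse contigs and -1.05 among the channel and pump contigs. By library, 5 to 6 of the 6 homologs were lower by over 0.3, against 1 to 2 of the 10 synapse contigs. Of the 10 channel and pump contigs, 0 to 3 were. The share of all contigs lower by over 0.3 was not computed, and the 5 libraries were picked for their many low contigs. These counts thus do not set the homologs apart. Of the other ankyrin names, neither contig was lower than -0.41. The neural markers were higher, with a median over the 4 contigs of 0.41 to 0.61, and the muscle markers had a median of -0.33 to -0.04, with single contigs down to -4.69. In the 4 head libraries mitochondrial RNA took 16.8 to 18.8% of the counts, against 12.4 to 13.5% in control heads. The part of these differences in the low values of the homologs was not tested.

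**Figure D4:**
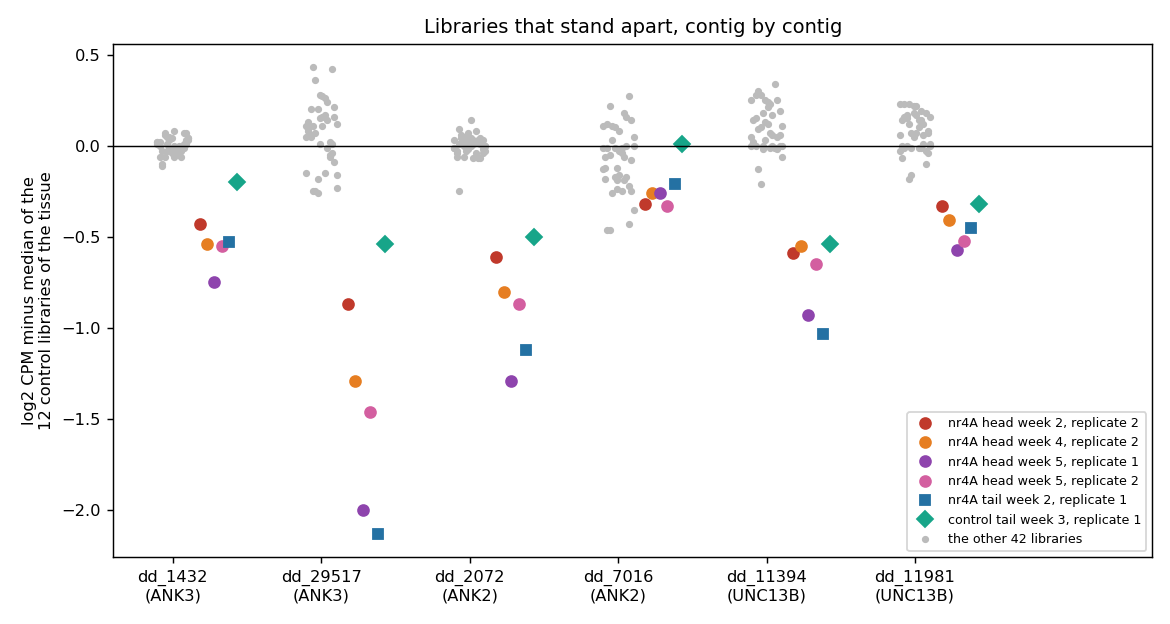
Log2 CPM of each contig minus the median of the 12 control libraries of the same tissue (vertical axis). Coloured symbols are the 5 *nr4A(RNAi)* libraries that stand apart and the control tail of week 3 replicate 1, and grey points are the other libraries. The coloured symbols lie below the grey points in every contig but dd_7016 (*ANK2*), down to -2.13 in dd_29517 (*ANK3*).

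Contigs of related function were read from the same fits over the 4 weeks, with all libraries. In these fits 13% of all contigs passed in heads and 3.08% in tails. Of the 10 synapse contigs, 2 were higher and none lower in *nr4A(RNAi)* heads, and also 2 higher and none lower in *nr4A(RNAi)* tails. In both tissues these were dd_7243 (*SYT11*), at 0.30 in heads and 0.17 in tails, and dd_6180 (*NLGN4Y*), a neuroligin homolog, at 0.13 in each. Of the 10 channel and pump contigs, 3 were higher in *nr4A(RNAi)* heads and 4 in *nr4A(RNAi)* tails, and none was lower. The contig dd_9434 (*KCNIP1*) was higher in both, at 0.43 in heads and 0.27 in tails. Of the other ankyrin names, dd_17293 (*ANK1*) was higher in heads, at 0.19 (SE 0.051, edgeR adjusted p = 0.0219), and dd_8391 (*ANK2*) passed in neither tissue. Of the 4 neural markers 2 were higher in *nr4A(RNAi)* heads and none passed in tails, and of the 10 muscle markers 4 were lower in heads and 1 in tails. Without the libraries that stood apart, 9 of the 10 muscle markers were lower and 1 was higher in *nr4A(RNAi)* heads, and 4 synapse contigs and 4 channel and pump contigs were higher there. The share of all contigs that passed in heads rose as well, as given above. In tails these 3 lists had the same counts without the library that stood apart, where 7.6% of all contigs passed. The *ANK1* contig was no longer called in heads. The summed level of the muscle markers was 8010 to 10200 CPM in *nr4A(RNAi)* heads, against 10200 to 13200 CPM in control heads. The part of the muscle and neural levels in the changes of the homologs was not tested.

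Contigs whose profile was most like that of each homolog were sought among 640 contigs with a name in the study's supplementary gene lists. These include lists of pole-enriched genes and of *nr4A*+ against *nr4A*- muscle cells, and contigs outside them were not searched. Likeness was the root mean square difference between centred log2 CPM over the 16 groups. For dd_11394 (*UNC13B*) the nearest was the other *UNC13B* contig dd_11981, at 0.08, where its own profile had an SD of 0.34. For dd_11981 the nearest was dd_12432 (*DDR2*), a collagen receptor homolog, at 0.06, followed by dd_10945 (*KIAA0556*) at 0.07, and dd_12432 was also the second nearest of dd_11394, at 0.09. For dd_1432 (*ANK3*) they were dd_6888 (*WDR11*) at 0.03 and dd_5181 (*TBC1D5*) at 0.04. For dd_29517 (*ANK3*) they were dd_19912 (*PXDN*), a matrix peroxidase homolog, at 0.11 and dd_39545 (*EPHA2*), a guidance receptor homolog, at 0.16. For dd_2072 (*ANK2*) they were dd_7957 (*MPP7*), a membrane scaffold homolog, at 0.06 and dd_8167 (*ANKRD50*) at 0.07. For dd_7016 (*ANK2*) none of the 640 contigs came close. The nearest, dd_8383 (*MIPEP*) and dd_1967 (*TLL1*), were both at 0.11, and the profile of dd_7016 had an SD of 0.15. The profiles hold the libraries that stood apart, and the likeness without them was not computed.

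The ratio within each pair, in the same library, varied least for *UNC13B*. The log2 ratio of dd_11394 to dd_11981 was -0.31 to 0.16 in *nr4A(RNAi)* heads, against -0.08 to 0.19 in control heads, and its median was 0.09 in *nr4A(RNAi)* heads and 0.04 in control heads. The ratio of dd_7016 to dd_2072 (*ANK2*) had medians of -3.84 in *nr4A(RNAi)* heads and -3.80 in control heads, and -3.67 in *nr4A(RNAi)* tails and -3.37 in control tails. The ratio of dd_29517 to dd_1432 (*ANK3*) had medians of -4.53 in *nr4A(RNAi)* heads and -4.64 in control heads. In the 4 head libraries that stood apart it was -5.92 to -5.11. The size of each ratio depends on the unknown lengths of the contigs, and only its movement between libraries can be read.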

How the data were processed

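Polyadenylated RNA of heads and tails was sequenced from TruSeq libraries. Per the labels and the methods of the study, the authors mapped reads with bowtie 1 to the dd_Smed_v4 transcriptome (the submitters' processing notes also name CASAVA 1.7.0, Trimmomatic 0.32 and DESeq) and deposited raw counts of reads per contig, whole numbers without normalization, in a head table with isoforms merged and a tail table with isoform rows kept apart. Here the rows of a contig number were summed, giving 26402 contigs in heads and 26401 in tails. Head rows that name no contig, nearly all of them mitochondrial, took 12.4 to 18.8% of the counts and were left out of library sizes and tests. Reads shared by near-identical contigs could be split among them. The deposited tables of the authors' own DESeq comparison (group means, fold changes and p-values) were not used. Head columns of *nr4A* libraries begin with nr4A1 and tail columns with nr4A, the reverse of the sample titles, so each was matched by tissue table, week and replicate.

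Counts were filtered with filterByExpr (minimum count 10, minimum total 15), scaled by TMM and tested with edgeR 4.0.16 (quasi-likelihood F test, R 4.3.3), with Benjamini-Hochberg adjustment over all contigs tested and a threshold of 0.05. The SE is the log2 fold change divided by the root of F. Weekly changes came from 8 fits of 6 libraries, mean changes and differences between weeks from fits of the 24 libraries of a tissue, heads against tails from the 24 control libraries, and the difference between tissues from all 48. CPM are on 1 TMM scale over the 48 libraries, and log2 CPM used a prior count of 1. The replicates were stated to be biological, each a pool of animals, and no 2 libraries had identical counts. The tests were tested on simulated data with the same spread for every contig and no library that stood apart. The simulation therefore does not cover fits that hold such libraries. Alternatives were upper quartile and RLE scaling, no filter, DESeq2 1.42.0, a replicate block, a fit of all libraries, leaving out each replicate number, and, added after the data had been seen, leaving out libraries that stood apart and using the tail rows as deposited. Libraries stood apart where over 2% of contigs with a mean log2 CPM above 3 lay more than 1 (log2) below the median control. The text names the 6 homologs, *nr4A*, contigs of fixed lists (other ankyrins, channels and pump, synapse, neural, muscle, head tip, tail tip and other cell type markers) and, for each homolog, the 2 named contigs with the most similar profile. The members and lists were chosen with earlier results of these data known. The 3 markers of other cell types (*agat-1*, *gata456-2* and *vasa-2*) summed to 397 to 575 CPM in *nr4A(RNAi)* heads, against 506 to 588 CPM in control heads. Of these markers 1 was lower over the 4 weeks, where 13% of all contigs passed. Contig names come from the best BLAST matches the study gives. Contig sequences were not used here.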

Additional observations from a re-analysis of the deposited data

Results flagged for a closer look

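Mitochondrial RNA, which was in no comparison, took 18.8% of the counts of *nr4A(RNAi)* head week 5 replicate 1, a larger share than in any control head (12.4 to 13.5%). The 4 *nr4A(RNAi)* heads that stood apart held 16.8 to 18.8% and the other 8 held 12.6 to 13.7%. The same 4 libraries held the lowest head values of all 6 homologs. The share was not compared in tails.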

How the results depend on the processing

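The number of the 6 homologs called was the same under RLE scaling, without the filter and with DESeq2 in every comparison. With the replicate number as a replicate block the mean change again called 1 contig in heads (8.05% of all contigs passed) and 1 in tails (2%). The only call that changed was dd_11981 in tails at week 5, which passed (0.19, edgeR adjusted p = 0.0299). At that week 14.5% of all contigs passed with the block, against 9.89% without it. The labels give no shared source for a number, and 4 of 12 head pairs and 7 of 12 tail pairs of *nr4A(RNAi)* and control libraries with the same number had a correlation over 0.1, so the numbers were not taken to pair the samples. Upper quartile scaling called 0 contigs for the mean change in heads (dd_7016, -0.16, edgeR adjusted p = 0.0503), where 14.1% of all contigs passed. A fit of all libraries of a tissue called 2 contigs over the head weeks and 0 over the tail weeks, in place of 1 and 2. In heads the call of dd_11394 at week 3 was lost, where 0.245% of all contigs passed. Those of dd_1432 (-0.48, edgeR adjusted p = 0.0486) and dd_7016 (-0.33, edgeR adjusted p = 0.0381) at week 5 were gained, where 13% of all contigs passed. In tails both week 5 calls were lost, where 1.7% of all contigs passed.

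Leaving out replicate numbers gave 1 to 7 calls over the head weeks (0 to 61% of all contigs passed in a week) and 1 to 2 over the tail weeks (0 to 10.8%). The mean change gave 0 to 4 calls in heads (4.91 to 49.9%) and 1 to 3 in tails (1.53 to 9.92%). Week 5 less week 2 gave 0 to 1 in heads (0 to 11.3%). The 7 and 4 calls came without *nr4A(RNAi)* replicate 3, which leaves only libraries that stood apart in heads at week 5, and all were lower except dd_11394 at week 3. In that setting 61% of all contigs passed in heads at week 5 and 49.9% for the mean change, so these calls do not set the homologs apart. Over these settings dd_11394 was at -0.16 to 0.20 in heads at week 4, -0.70 to 0.03 at week 5, -0.20 to 0.10 on average and -0.45 to 0.30 for week 5 less week 2. In the same order but for week 4, dd_11981 was at -0.47 to 0.03, -0.15 to 0.06 and -0.28 to 0.23, and dd_29517 was at -1.48 to -0.12 at week 5 and -0.45 to 0.05 on average.

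Without the libraries that stood apart, with or without the control tail of week 3 replicate 1, calls became 5 over the head weeks, 3 for the mean change in heads and 2 in tails, 2 for week 5 less week 2 in heads and 4 for control week 5 less week 2 in heads. Of 96 values of the homologs, 30 changed sign, and 9 of these passed the test without those libraries. They were all in heads, for dd_11394 (0.20 at week 4, 0.41 at week 5, 0.22 on average, 0.32 for week 5 less week 2), dd_11981 (0.34 at week 5, 0.15 on average, 0.29 for week 5 less week 2) and dd_29517 (0.46 at week 5, 0.23 on average). The other 21 did not pass, among them dd_2072 in heads (0.09 at week 5, 0.04 on average, 0.10 for week 5 less week 2). The share of all contigs that passed rose as well without those libraries. It went from 13 to 21.9% for the mean change in heads and from 3.08 to 7.6% in tails. For control week 5 less week 2 in heads it went from 1.63 to 15.6%, and other shares are given above. These calls thus do not set the homologs apart. Replicate 3 is then the only *nr4A(RNAi)* head of week 5. The cause of the sign changes was not tested. With 3 pooled libraries a group, 1 library can decide a weekly value.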

Other observations

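The tail table keeps isoform rows of a contig apart, and its 60 rows for the 6 homologs were described as a check on the sums. dd_2072 (*ANK2*) had 32 rows, dd_1432 (*ANK3*) 12, dd_11394 (*UNC13B*) 8, dd_11981 (*UNC13B*) 5, dd_29517 (*ANK3*) 2 and dd_7016 (*ANK2*) 1. Taken row by row, the mean change in tails called 1 of the 60 rows, that of dd_7016, beside 2.04% of all 28755 rows tested. In dd_11981 the largest rows held a median of 51.3% and 38.3% of the counts in *nr4A(RNAi)* tails, against 51.8% and 38.4% in control tails. In the tail library that stood apart, the second of these rows held 21.6%, and in the other 23 tails it held 29.3 to 41.6%. In dd_29517 the larger row held 57.1% in that library and 67.8 to 78.7% in the other tails. All rows of a contig carry the same ID, so which isoform each row is cannot be said.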
